A study of Mus musculus with 6 samples.

Results

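Respiratory complex I genes were taken as every row of the count table whose symbol begins with Nduf, which gave 45 of the 11922 genes in the table. Of these, 8 begin with Ndufaf and name assembly factors, and the other 37 were counted as subunits. The list of subunits includes Ndufa4, which carries a complex I name but is now held to be a subunit of complex IV. The counts came from RNA sequencing of splenic CD8+ T cells of C57BL6/J mice, activated with anti-CD3/anti-CD28 beads and kept with 100 units/ml of recombinant human IL-2 for 7 days. Cells of the same 3 mice were grown throughout either with water (vehicle, n = 3 libraries) or with 0.25 mM aminoxyacetic acid (AOA, n = 3 libraries), an inhibitor of enzymes that depend on the active form of vitamin B6. The labels name no allele and no further agent for either group and give no age of the mice. The comparison asks how these genes differed after 7 days with the inhibitor. The mitochondrially encoded ND subunits, Ndufb1 and Ndufa4l2 were not analysed here.

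Complex I, NADH:ubiquinone oxidoreductase, is the entry point of electrons from NADH into the mitochondrial respiratory chain. Its matrix arm is made of an N module, which oxidises NADH, and a Q module, which passes the electrons to ubiquinone, and its membrane arm pumps protons and is commonly split into a proximal and a distal part. The core subunits hold the flavin, the iron-sulfur clusters and the pump, the accessory subunits surround them, and assembly factors build the complex without remaining in it. Activated T cells rely on the respiratory chain to reoxidise NADH while they divide.

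Library totals ranged from 12881962 to 18934869 counts with vehicle and from 18696114 to 21997078 with AOA. Vehicle replicate 2 and AOA replicate 1 stood apart from the other libraries of their groups, with replicates of a group differing by a chi-square per gene of 10 to 70.9. The 7 CD8+ T cell markers together were at 4061 to 5069 CPM (counts scaled to the TMM-adjusted total of each library) with vehicle and 5103 to 5918 CPM with AOA, of which 2 rose and 1 fell. All 4 CD4+ T cell markers summed to 158 to 210 CPM with vehicle and 33.0 to 54.3 CPM with AOA, with 3 of them lower. Of 8 myeloid markers, 4 were in the table at a sum of 60.2 to 119.9 CPM with vehicle and 5.42 to 10.3 CPM with AOA, with 3 lower. The 3 natural killer markers in the table, Klrb1c, Ncr1 and Eomes, summed to 145 to 308 and 128 to 213 CPM, with 1 lower of the 2 that were tested. The 5 B cell markers summed to 12.9 to 18.5 and 23 to 30.9 CPM, with 1 higher, while none of the 6 erythroid markers had a row. Whether these counts came from other cells or from the CD8+ T cells themselves was not tested, nor was the part of other cells in the results on complex I. In such bulk samples, fewer cells of a type and less RNA per cell cannot be told apart. The p-values of the main test measure the spread between cultures of 3 mice within each group and do not use the pairing by mouse. Those given with the mouse as a block measure the spread of the differences within the mice.

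Most nuclear genes of complex I were higher with AOA. All 45 were tested, and 30 of the 37 subunits rose, 1 fell and 6 were not called (edgeR's quasi-likelihood test, Benjamini-Hochberg adjusted p under 0.05 over all 11759 genes tested). Over all genes tested, 26.2% were called higher and 26.8% lower. Among genes that were not members and whose length lay within that of most subunits (477.2 to 1628.6 bases), 31.9% were called higher and 20.0% lower. The median log2 fold change (AOA against vehicle) was 0.74 over the subunits, with quartiles of 0.47 and 1.03, which is a fold of 1.68. It was -0.02 over all genes tested and 0.13 over the 2251 genes of similar length. Among genes with at least 10 CPM in 3 libraries it was 0.70 over the subunits and 0.25 over genes of similar length, and over all genes within the full length range of the subunits it was 0.07. In 31 of the 37 subunits every AOA library lay above every vehicle library, as it did in 31.0% of all genes tested, and in 0 did every AOA library lie below, which held for 31.1% of all genes. Of the 8 assembly factors, 6 rose, 0 fell and 2 were not called. Among the 5838 genes of a length like theirs (624.2 to 3002.0 bases), 29.4% were called higher and 24.2% lower. Their median log2 fold change was 0.72, against 0.06 in those genes of similar length. With at least 10 CPM in 3 libraries these medians were 0.59 and 0.12, and without AOA replicate 1 they were 0.50 and -0.01.

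**Figure D1:**
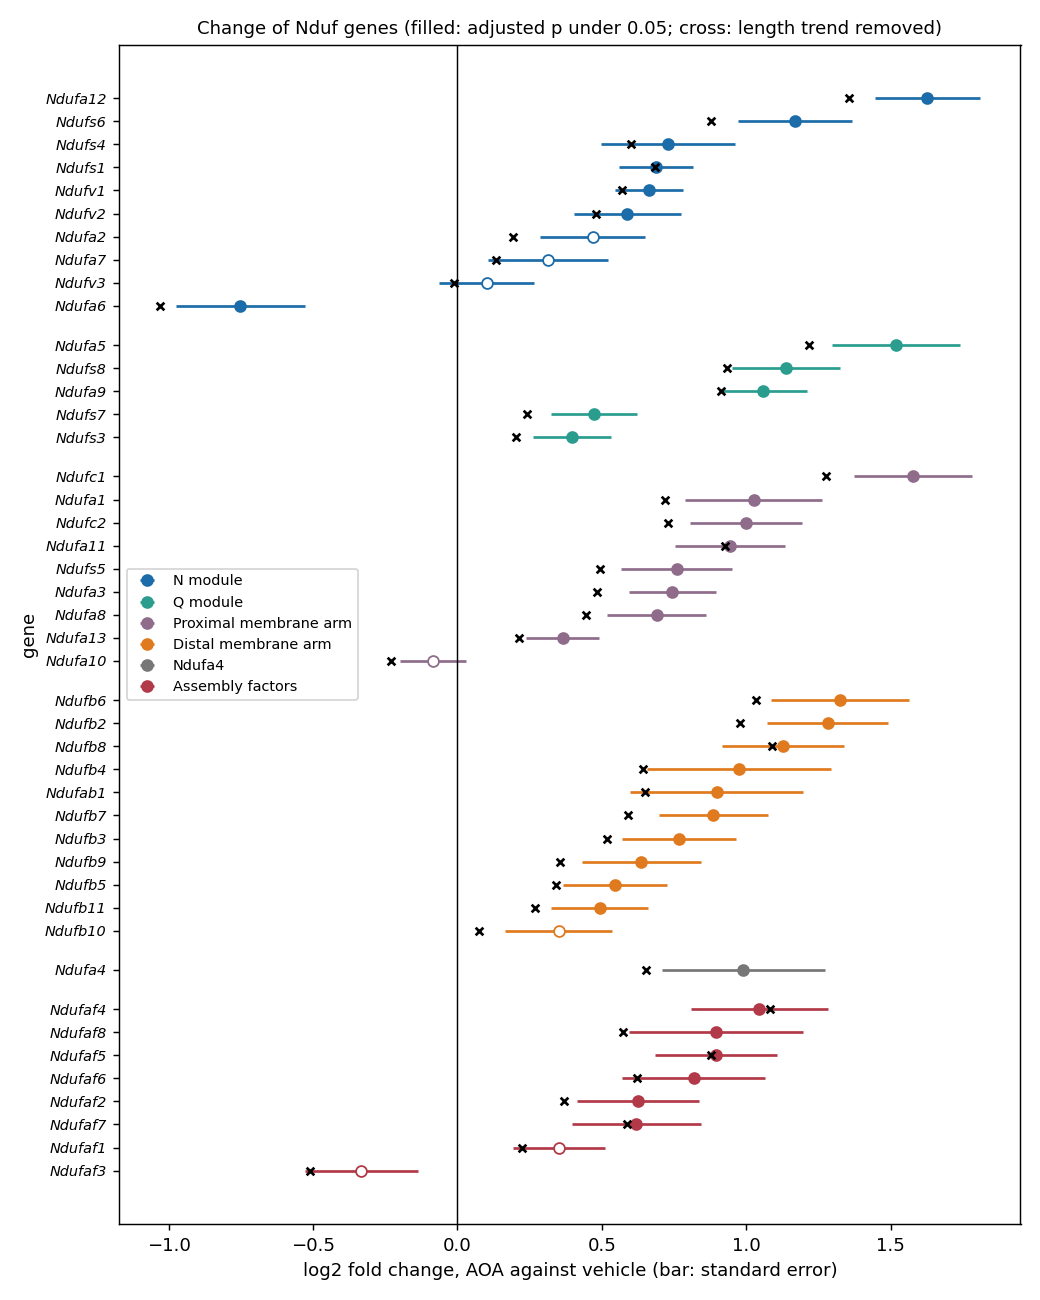
Log2 fold change of the Nduf genes, 1 left out, with AOA against vehicle on the horizontal axis, as a point with its standard error (n = 3 libraries a group), coloured by module, with a cross for the value after removal of the length trend. Filled points were called at an adjusted p under 0.05, and Ndufa6 is the 1 filled point left of 0.

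The subunits with the largest rise in fitted log2 fold change were Ndufa12 and Ndufc1, and the single subunit that fell was Ndufa6. Their promoters are printed here with that of Ndufs6, a subunit whose window held a pair of different motifs, as RefSeq windows of assembly GRCm38.p6 that run from 250 bases before to 50 bases after the start of the gene. RefSeq windows were found for 40 of the 45 genes, 33 subunits in 35 windows and 7 assembly factors in 7 windows, and among those without one were Ndufa2, Ndufb9, Ndufs1 and Ndufaf6. Capitals mark matches, on either strand, to the letters CGCANGCGC (NRF1), CCGGAAG (ETS), AAGATGGC (YY1), TCAAGGTCA (ERR) and GGGCGG (SP1), none of which contains another. The windows lie at chr10:94198785-94199084 (plus strand, Ndufa12), chr3:51408906-51409205 (minus strand, Ndufc1), chr13:73328433-73328732 (minus strand, Ndufs6) and chr15:82354242-82354541 (minus strand, Ndufa6), each written 5′ to 3′ on the strand of the gene.
Ndufa12: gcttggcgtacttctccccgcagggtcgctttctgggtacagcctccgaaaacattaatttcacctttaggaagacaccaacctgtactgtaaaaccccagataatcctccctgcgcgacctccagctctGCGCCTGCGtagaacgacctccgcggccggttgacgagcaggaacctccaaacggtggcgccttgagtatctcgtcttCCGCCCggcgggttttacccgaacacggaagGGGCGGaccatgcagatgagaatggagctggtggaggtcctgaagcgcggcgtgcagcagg
Ndufc1: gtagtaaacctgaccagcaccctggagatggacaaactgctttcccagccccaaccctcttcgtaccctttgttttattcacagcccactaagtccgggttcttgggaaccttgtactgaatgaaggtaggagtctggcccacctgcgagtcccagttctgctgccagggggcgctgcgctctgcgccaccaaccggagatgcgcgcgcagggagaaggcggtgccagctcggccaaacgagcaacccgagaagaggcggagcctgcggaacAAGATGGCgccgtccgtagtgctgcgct
Ndufs6: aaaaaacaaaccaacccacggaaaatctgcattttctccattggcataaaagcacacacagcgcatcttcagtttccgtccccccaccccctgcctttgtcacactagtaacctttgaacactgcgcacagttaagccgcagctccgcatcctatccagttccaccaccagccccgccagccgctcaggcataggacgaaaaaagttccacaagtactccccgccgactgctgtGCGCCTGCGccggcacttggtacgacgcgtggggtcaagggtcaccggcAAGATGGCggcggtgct
Ndufa6: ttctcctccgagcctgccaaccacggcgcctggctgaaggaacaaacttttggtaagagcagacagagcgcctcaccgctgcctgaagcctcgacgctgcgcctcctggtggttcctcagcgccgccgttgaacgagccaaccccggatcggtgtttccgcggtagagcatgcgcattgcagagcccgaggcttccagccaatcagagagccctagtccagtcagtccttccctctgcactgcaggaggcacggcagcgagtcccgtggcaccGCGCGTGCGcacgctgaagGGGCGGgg
The NRF1 letters were in both Ndufa12, which rose, and Ndufa6, which fell. They were found in 28.6% of the 35 subunit windows, in 28.6% of the 7 assembly factor windows, in 13.7% of the 11991 windows of genes tested and in 6.31% of all 32851 windows. The YY1 letters were in 20.0% of subunit windows, against 4.58% of windows of genes tested and 2.75% of all windows. In the 7 subunit windows that held them (Ndufa3, Ndufa9, Ndufb8, Ndufc1, Ndufs4, Ndufs6 and Ndufs7) they began 23 to 39 bases after the start of the gene. For the ETS letters the shares were 11.4% of subunit windows, 18.4% of windows of genes tested and 8.86% of all windows, and for SP1 they were 45.7%, 62.4% and 35.7%. The ERR letters were in 0 subunit windows and in 0.423% of all windows. Of the assembly factor windows, 28.6% held ETS, 14.3% YY1, 85.7% SP1 and 0 ERR letters. These shares describe letters in a window and were not tested.

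The N module takes the electrons from NADH, and of its 10 subunits 6 rose and 1 fell. Their log2 fold changes had a median of 0.63, or 0.40 without AOA replicate 1. Ndufa12, an accessory subunit that takes the place of the assembly factor Ndufaf2 late in assembly (Entrez 66414, chr10:94199035-94221440 as annotated on GRCm38, the mm10 build, like the gene positions that follow), was at 14.8, 19.9 and 15.8 CPM in vehicle replicates 1 to 3 and at 62.3, 48.1 and 45.6 CPM in AOA replicates 1 to 3. Every AOA library thus lay above every vehicle library, with means of 16.8 ± 2.72 and 52.0 ± 8.98 CPM (SD, n = 3) and a log2 fold change of 1.63 (SE 0.18, adjusted p = 0.000129 by edgeR). Ndufs6, a zinc-binding accessory subunit (Entrez 407785, chr13:73319876-73328482), was at 28.1, 33.3 and 31.5 CPM with vehicle and 92.4, 59.7 and 57.0 CPM with AOA, a log2 fold change of 1.17 (SE 0.20, adjusted p = 0.00117 by edgeR). Its groups did not overlap, and AOA replicate 1 was the highest library, as it was for Ndufa12.

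The core subunits of the N module had smaller log2 fold changes than these accessory subunits, which were chosen as the largest of the module. Of its other accessory subunits, Ndufs4 (0.73) lay above the core subunits. Ndufa2 (0.47), Ndufa7 (0.32), Ndufv3 (0.10) and Ndufa6 (-0.75) lay below them. Ndufs1, which carries several of the iron-sulfur clusters (Entrez 227197, chr1:63143592-63176822), was at 71.7, 87.9 and 73.7 CPM with vehicle and 126, 123 and 127 CPM with AOA (log2 fold change 0.69, SE 0.13, adjusted p = 0.00196 by edgeR). Ndufv1, which binds NADH and the flavin (Entrez 17995, chr19:4007499-4012755), was at 59.8, 66.1 and 62.1 CPM and at 95.5, 100.4 and 101 CPM (0.66, SE 0.12, adjusted p = 0.00149 by edgeR). In both genes the AOA libraries lay close together and above all vehicle libraries, and AOA replicate 3 rather than replicate 1 was the highest. Ndufv2, an iron-sulfur subunit beside the flavin site (Entrez 72900, chr17:66078795-66101559), was at 88.4, 82.9 and 100.4 CPM with vehicle and 176, 116 and 116 CPM with AOA (0.59, SE 0.19, adjusted p = 0.0239 by edgeR). AOA replicate 1 stood above the other libraries here, and without it the log2 fold change was 0.36, still called; without vehicle replicate 1 the call was lost at 0.59. Ndufs4, an accessory subunit of the same module, rose by 0.73 (SE 0.23, adjusted p = 0.0247 by edgeR), a call lost without vehicle replicate 1 (0.76) or AOA replicate 1 (0.44).

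Ndufa6, an accessory subunit that binds the mitochondrial acyl carrier protein (Entrez 67130, chr15:82350139-82354291), went the other way. It was at 180.2, 106 and 154 CPM in vehicle replicates 1 to 3 and at 109.7, 73.3 and 78.0 CPM in AOA replicates 1 to 3. The groups overlapped, since AOA replicate 1 lay above vehicle replicate 2, but within each of the 3 mice the AOA library was the lower of the pair. Its log2 fold change was -0.75 (SE 0.22, adjusted p = 0.0185 by edgeR), and with the mouse as a block -0.74 (adjusted p = 0.00219). The call was lost without vehicle replicate 1 (-0.55), vehicle replicate 3 (-0.69), AOA replicate 2 (-0.64) or AOA replicate 3 (-0.68). The remaining subunits of the module were not called. Ndufa2 had a log2 fold change of 0.47 (adjusted p = 0.0539 by edgeR; 0.62 and called without AOA replicate 2, and called at 0.48 by DESeq2 with an adjusted p of 0.038), Ndufa7 of 0.32 and Ndufv3 of 0.10. Without AOA replicate 1, Ndufa2 was at 0.25, Ndufa7 at 0.022 and Ndufv3 at -0.077, so that the direction of Ndufv3 rested on that library. With the trend of fold change with gene length removed, Ndufa2 was at 0.19 and Ndufa7 at 0.13.

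In the Q module, which hands the electrons to ubiquinone, 5 of 6 subunits rose and 0 fell, with a median log2 fold change of 0.77. Ndufa5, an accessory subunit (Entrez 68202, chr6:24518662-24527690), was at 12.6, 14.7 and 13.1 CPM with vehicle and 52.3, 29.5 and 34.2 CPM with AOA (1.52, SE 0.22, adjusted p = 0.000523 by edgeR). Ndufs8, a core subunit that carries iron-sulfur clusters (Entrez 225887, chr19:3908863-3912774), was at 35.4, 41.5 and 38.3 CPM and at 109.6, 70.7 and 73.0 CPM (1.14, SE 0.19, adjusted p = 0.000961 by edgeR). Both had vehicle libraries within a narrow range, all AOA libraries above it and AOA replicate 1 at the top. Ndufa9, an accessory subunit that binds a nucleotide cofactor, rose by 1.06 (adjusted p = 0.000466 by edgeR).

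The core subunits Ndufs7 and Ndufs3 of the Q module had smaller called changes. Ndufs7, which lies at the ubiquinone site (Entrez 75406, chr10:80249105-80256794), was at 38.3, 34.3 and 34.3 CPM with vehicle and 57.9, 43.9 and 46.4 CPM with AOA (0.47, SE 0.15, adjusted p = 0.0236 by edgeR), a call lost without vehicle replicate 3 (0.47). Ndufs3 (Entrez 68349, chr2:90894627-90904721) was at 37.0, 33.6 and 35.2 CPM and at 51.9, 42.0 and 45.4 CPM (0.40, SE 0.14, adjusted p = 0.0335 by edgeR), which was not called without vehicle replicate 1 (0.45), vehicle replicate 3 (0.42), AOA replicate 1 (0.31) or AOA replicate 3 (0.42). Groups did not overlap in either gene. Taken by class, 6 of the 7 core nuclear subunits rose, with a median log2 fold change of 0.59, and 23 of the 29 accessory subunits rose and 1 fell, with a median of 0.77. The classes differed in length, with medians of 1608 and 659 bases. With the trend of fold change with gene length removed, the median log2 fold changes were 0.48 and 0.59.

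**Figure D2:**
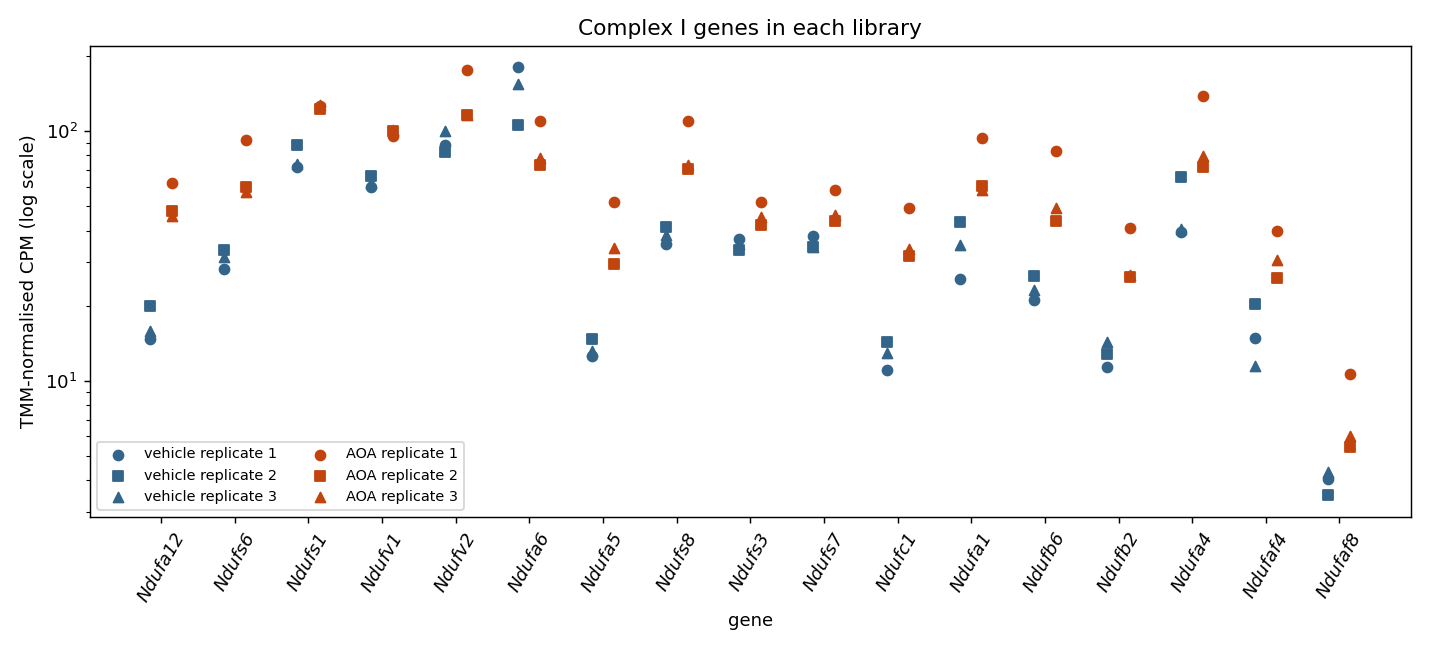
TMM-normalised CPM (log scale) of the subunits and assembly factors whose library values are given in the text, with 1 symbol for each library of the vehicle group (blue) and the AOA group (orange). For Ndufa12 the AOA libraries sit between 45.6 and 62.3 CPM and the vehicle libraries between 14.8 and 19.9 CPM, while the groups overlap for Ndufa6.

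In the membrane arm, 8 of 9 proximal subunits and 10 of 11 distal subunits rose and 0 fell, with median log2 fold changes of 0.76 and 0.89. In the proximal part, Ndufc1 (Entrez 66377, chr3:51405479-51408955) was at 11, 14.3 and 13.0 CPM with vehicle and 49.3, 31.6 and 33.7 CPM with AOA (1.58, SE 0.21, adjusted p = 0.000296 by edgeR). Ndufa1, a small membrane subunit of the X chromosome (Entrez 54405, chrX:37187588-37191238), was at 25.7, 43.3 and 35.2 CPM and at 93.8, 60.4 and 58.2 CPM (1.03, SE 0.24, adjusted p = 0.00573 by edgeR). In both genes all AOA libraries lay above all vehicle libraries. Ndufc2 rose by 1.00, Ndufa11 by 0.94, Ndufs5 by 0.76, Ndufa3 by 0.74 and Ndufa8 by 0.69, with adjusted p between 0.0024 and 0.00876 by edgeR. Ndufa13, also known as GRIM-19, was the smallest called change of the proximal part at 0.36 (SE 0.13, adjusted p = 0.0349 by edgeR). With the mouse as a block it was 0.36 and not called (adjusted p = 0.0603), and the call was also lost without vehicle replicate 1 (0.39), vehicle replicate 3 (0.40) or AOA replicate 3 (0.39). Ndufa10, which has the fold of a nucleoside kinase, was at -0.08 (adjusted p = 0.564 by edgeR) with overlapping groups.

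In the distal part, Ndufb6 (Entrez 230075, chr4:40270591-40279421) was at 21.2, 26.2 and 23.1 CPM with vehicle and 83.4, 43.9 and 49.3 CPM with AOA (1.32, SE 0.24, adjusted p = 0.00161 by edgeR). Ndufb2 (Entrez 68198, chr6:39592565-39599843) was at 11.4, 12.8 and 14.3 CPM and at 41.1, 26.1 and 26.7 CPM (1.28, SE 0.21, adjusted p = 0.000957 by edgeR). Again no AOA library reached down to the vehicle range, and AOA replicate 1 was well above the other AOA libraries. Ndufb8 rose by 1.13, Ndufb7 by 0.89 and Ndufb3 by 0.77. Ndufb9 (0.64), Ndufb5 (0.55) and Ndufb11 (0.49) rose by less, and without AOA replicate 1 they were at 0.35, 0.32 and 0.30. Their calls were lost without vehicle replicate 1 (0.63, 0.55 and 0.49), and that of Ndufb11 also without AOA replicate 1 or AOA replicate 3 (0.56). The distal members with the fewest counts were Ndufb4 (3.95 to 7.78 CPM, vehicle to AOA; log2 fold change 0.97, SE 0.32) and Ndufab1, the mitochondrial acyl carrier protein (3.69 to 6.84 CPM; 0.90). Both calls were lost without vehicle replicate 1 (0.83 and 0.97), vehicle replicate 3 (0.99 and 0.73) or AOA replicate 1 (0.64 and 0.64). Ndufb10 was not called (0.35, adjusted p = 0.139 by edgeR) and its groups overlapped. It was at 0.11 without AOA replicate 1 and at 0.077 with the length trend removed.

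Ndufa4, the complex IV subunit with a complex I name (Entrez 17992, chr6:11900372-11907450), was at 39.6, 65.7 and 40.8 CPM with vehicle and 139, 71.9 and 79.5 CPM with AOA. All AOA libraries were above all vehicle libraries, AOA replicate 2 only narrowly above vehicle replicate 2. Its log2 fold change was 0.99 (SE 0.28, adjusted p = 0.0154 by edgeR), and the call was lost without vehicle replicate 1 (0.88) or AOA replicate 1 (0.64). Without this gene, 29 of 36 subunits rose and the median log2 fold change was 0.74.

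The assembly factors with the largest called rise were Ndufaf4, Ndufaf8 and Ndufaf5. Ndufaf4, which binds early intermediates of the Q module (Entrez 68493, chr4:24898083-24905001), was at 14.8, 20.3 and 11.5 CPM with vehicle and 39.8, 25.8 and 30.5 CPM with AOA (1.05, SE 0.24, adjusted p = 0.00537 by edgeR). Ndufaf8, the partner of Ndufaf5 (Entrez 208501, chr11:120098934-120100424), was at 4.05, 3.49 and 4.34 CPM and at 10.7, 5.44 and 6.0 CPM (0.90, SE 0.30, adjusted p = 0.0312 by edgeR). The groups did not overlap in either gene, and for Ndufaf8 the AOA group was spread mainly by replicate 1. Ndufaf5, which hydroxylates an arginine of Ndufs7, rose by 0.89 (adjusted p = 0.00627 by edgeR). Ndufaf6 rose by 0.82, Ndufaf2, a paralog of Ndufa12, by 0.62 and Ndufaf7, an arginine methyltransferase, by 0.62, with adjusted p between 0.0198 and 0.0408 by edgeR. Ndufaf1, which acts on the membrane arm, was at 0.35 (adjusted p = 0.0917 by edgeR; 0.46 and called without vehicle replicate 2). Ndufaf3, the partner of Ndufaf4, had a log2 fold change of -0.33 (SE 0.20, adjusted p = 0.18 by edgeR) and was not called. Its exons overlap a gene on the other strand.

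The count of assembly factors called higher rested on few libraries, since it was 2 rather than 6 without vehicle replicate 1 or without AOA replicate 1, and 4 without vehicle replicate 3 or AOA replicate 3. In these fits 21.3%, 25.1%, 22.1% and 21.8% of all genes tested were called higher, in the same order. A count of 2 of the 8 assembly factors lies near such a share. Without vehicle replicate 1 the log2 fold changes of the 4 that lost their call were 0.93 for Ndufaf8, 0.80 for Ndufaf6, 0.57 for Ndufaf2 and 0.47 for Ndufaf7. Without AOA replicate 1 they were 0.53, 0.55, 0.44 and 0.46. Ndufaf2 and Ndufaf7 also lost theirs without vehicle replicate 3 (0.64 and 0.62) or AOA replicate 3 (0.70 and 0.69). For the 2 genes with the firmer calls, Ndufaf4 and Ndufaf5, no single library decided the call.

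Assembly factors outside the Nduf name were taken from a list of 12, of which 11 had a row and were tested. Of these, 4 rose (Ecsit, Aifm1, Dmac1 and Acad9) and 0 fell, with a median log2 fold change of 0.45. A share of 4 in 11 lies near the 26.2% called higher over all genes tested and the 29.4% over genes of assembly factor length. The highest was Ecsit, a member of the assembly complex of the membrane arm, at 0.91 (SE 0.21, adjusted p = 0.00508 by edgeR), from 18.4 ± 3.85 to 34.7 ± 7.31 CPM (SD, n = 3). The lowest was Tmem126b, of the same assembly complex, at -0.31 (adjusted p = 0.262 by edgeR), with overlapping groups. With the trend of fold change with gene length removed it was called lower (-0.54, adjusted p = 0.0289 by edgeR), and 4 of the 11 were then called higher.

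Because complex I genes are short, the relation of the fold changes to gene length bears on every value above. The median deposited length was 750 bases for the subunits and 1266.5 for the assembly factors, against 2900 over all genes tested. Over all genes tested the median log2 fold change was 0.08 up to 500 bases, 0.19 from 500 to 1000 bases, 0.08 from 1000 to 2000 bases, -0.01 from 2000 to 4000 bases and -0.14 above that, and the share called higher was 25.4%, 32.6%, 30.7%, 27.8% and 19.7%. In the same classes, 6 of 6 subunits rose up to 500 bases (median log2 fold change 1.01), 15 of 18 from 500 to 1000 bases (0.72), 6 of 10 from 1000 to 2000 bases (0.48) and 3 of 3 from 2000 to 4000 bases (0.94). The members of the longest of these classes were Ndufs1, Ndufa11 and Ndufb8. Across the 37 subunits the Spearman correlation of log2 fold change with length was -0.39, and across the 11759 genes tested it was -0.11. Both are descriptions across genes of the same libraries.

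When the trend of fold change with length was removed, 24 subunits were called higher and 1 lower, and the median over the subunits was 0.57 on the log2 scale. In that fit 27.6% of all genes tested were called higher and 27.8% lower, and the genes of similar length had a median of -0.03. The module medians were then 0.53 for the N module, 0.58 for the Q module, 0.50 for the proximal and 0.59 for the distal membrane arm. Ndufa12 was then at 1.35 and Ndufc1 at 1.28, and Ndufs1, a long subunit, hardly moved (0.68). The subunits that lost their call were Ndufs7 (0.24), Ndufs3 (0.20), Ndufa13 (0.21), Ndufb11 (0.27), Ndufb4 (0.64, adjusted p = 0.0557 by edgeR) and Ndufab1 (0.65, adjusted p = 0.0627 by edgeR). Ndufa6 was lower by a larger margin in that fit (-1.03, adjusted p = 0.00124 by edgeR). Of the assembly factors 5 were called higher and 1, Ndufaf3, lower (-0.51, adjusted p = 0.0336 by edgeR), while Ndufaf2 lost its call (0.37). With the mouse as a block as well, Ndufs5 (0.49, adjusted p = 0.0705 by edgeR), Ndufb5 (0.34, adjusted p = 0.053 by edgeR) and Ndufaf8 (0.56, adjusted p = 0.0691 by edgeR) were not called either, while Ndufab1 was called and Ndufaf3 was not.

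**Figure D3:**
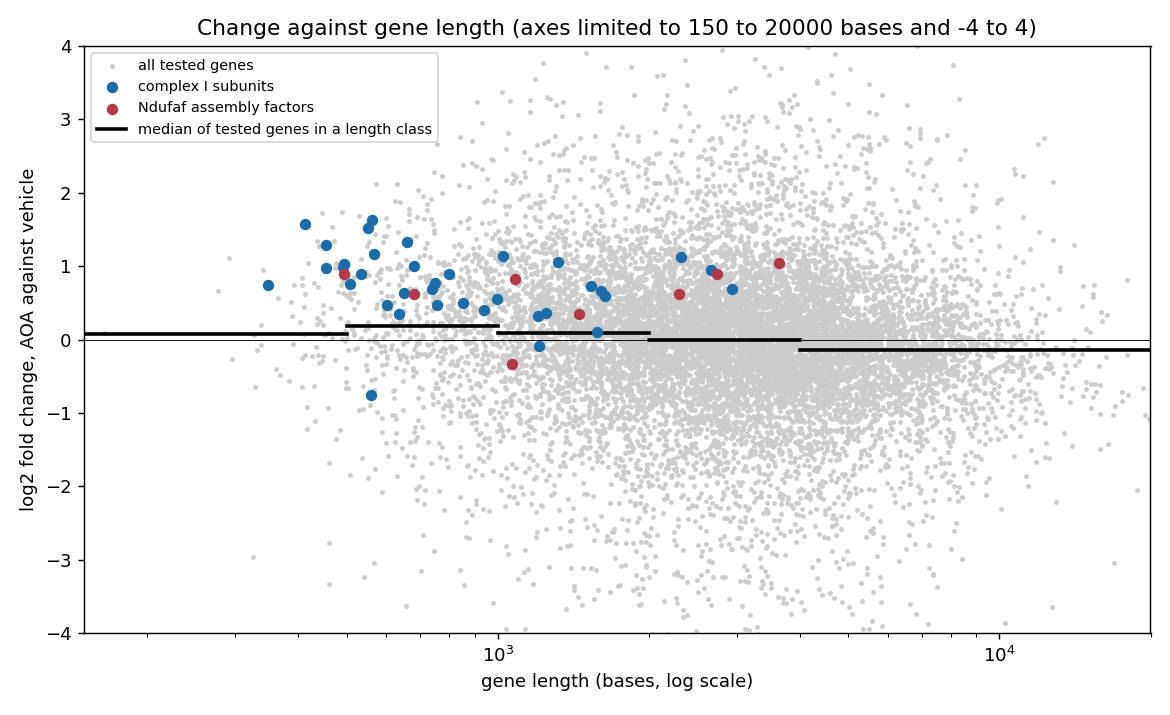
Log2 fold change of AOA against vehicle by deposited gene length (bases, log scale) for all genes tested (grey), subunits (blue, 1 left out) and Ndufaf assembly factors (red), with black bars for the median of all genes tested in each length class. The bars run from 0.19 at 500 to 1000 bases to -0.14 above 4000 bases, and most subunits lie above the bar of their class.

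The rise was seen in the cells of each mouse but was uneven. The median log2 ratio of AOA to vehicle over the subunits was 1.15 in mouse 1, 0.49 in mouse 2 and 0.53 in mouse 3, a mean of 0.72 ± 0.37 (SD, n = 3 mice), and 33 of the 37 subunits were higher with AOA in all 3 mice, as were 4210 of the 11759 genes tested and 932 of the 2251 genes of similar length. Over the assembly factors the medians were 1.31, 0.30 and 0.47. The genes of similar length moved too in mouse 1, by a median of 0.36 beside the subunits and 0.17 beside the assembly factors, and lay between 0.01 and 0.04 in the other mice. The subunits summed to 1962, 2042 and 2088 CPM in vehicle replicates 1 to 3 and to 3765, 2623 and 2727 CPM in AOA replicates 1 to 3, and took 0.192%, 0.211% and 0.203% against 0.372%, 0.265% and 0.277% of all counts. The vehicle libraries were nearly level and the AOA libraries all above them. The assembly factors summed to 87.9, 104 and 89.9 CPM with vehicle and 179.5, 125 and 129 CPM with AOA. AOA replicate 1, which is the AOA library of mouse 1, was the highest library for 32 of the 37 subunits and 7 of the 8 assembly factors. Without it, 24 subunits were called higher and their median log2 fold change was 0.64, beside 0.01 in the genes of similar length. In that fit 25.1% of all genes tested were called higher. Without vehicle replicate 1, 20 subunits were called higher while their median log2 fold change was 0.75, and the share of all genes tested called higher was 21.3%.

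**Figure D4:**
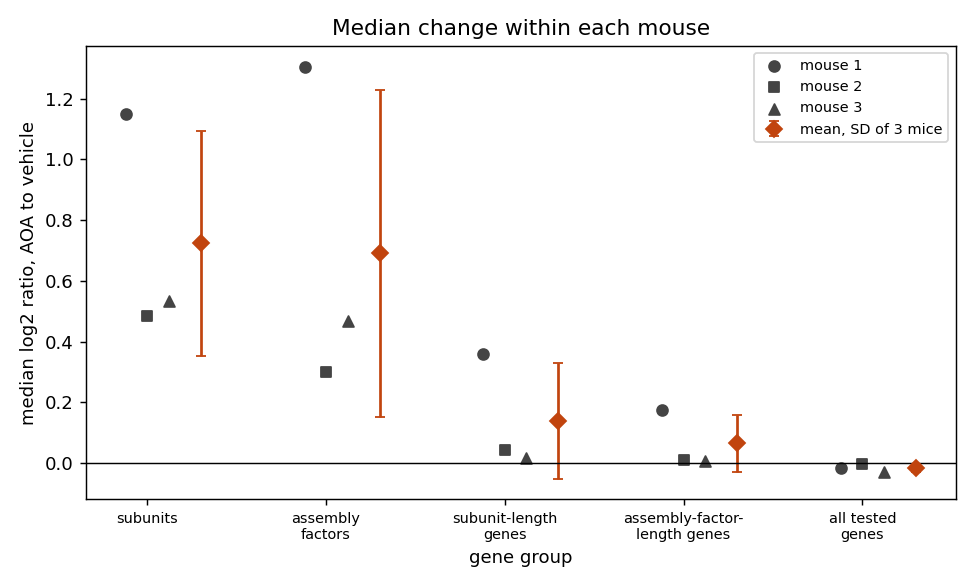
Median log2 ratio of AOA to vehicle within each mouse (grey symbols) for the subunits, the assembly factors, the genes of similar length to each and all genes tested, with the mean and SD of the 3 mice as an orange diamond. The subunits lie at 1.15, 0.49 and 0.53 and the genes of subunit length at 0.36, 0.04 and 0.02.

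Levels were compared between genes as CPM per kilobase of the deposited length. The median subunit was at 47.7 CPM per kilobase with vehicle and 90.4 with AOA, and the median assembly factor at 7.40 and 10.9, so that assembly factors were listed well below subunits in both groups. With vehicle the highest subunit was Ndufa6 at 262 CPM per kilobase, and with AOA it was Ndufa3, at 228 after 136 with vehicle, while Ndufa6 was at 155. Ndufab1 was the lowest in both, at 4.61 and 8.56. The levels of subunits lay somewhat closer together with AOA, with an SD of the log2 level across the 37 genes of 1.00 against 1.17 with vehicle. Their order was largely shared between the groups (Spearman 0.88 across 37 genes, a description). Sequence shared with other genes could lower such levels where reads could not be placed uniquely: 19 of the 45 genes shared some 75-base stretch with the annotated transcripts of other genes in GENCODE M21, 9 of them over 10% of their stretches. The share was 63.2% for Ndufaf2, 27.8% for Ndufb6, 25.6% for Ndufa13, 17.2% for Ndufb4, 15.7% for Ndufs5, 14.6% for Ndufa12, 13.4% for Ndufb9, 12.2% for Ndufs3 and 10.6% for Ndufb5. For Ndufab1, the subunit with the lowest level, it was 8.11%. Exons of 16 genes, Ndufs1, Ndufs6 and Ndufb6 among them, overlapped a gene on the other strand and those of 3 (Ndufb2, Ndufb8 and Ndufb9) a gene on the same strand. The libraries were stranded, but whether the counting used strand is not known here, so counts at these overlaps are uncertain. Ndufa6 had neither shared stretches nor overlaps.

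**Figure D5:**
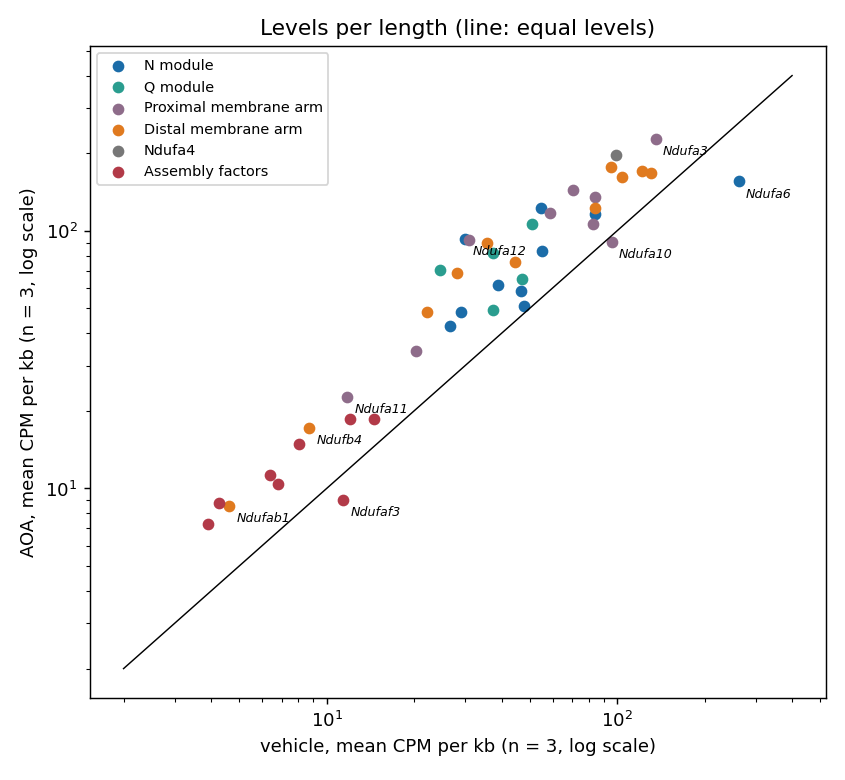
Mean CPM per kilobase of the Nduf genes, 1 left out, with vehicle (horizontal) and AOA (vertical), n = 3 libraries each, both axes on a log scale, coloured by module, with a line at equal levels. Most genes lie above the line, and Ndufa6, at 262 and 155, lies below it.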

How the data were processed

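Stranded mRNA libraries (Illumina TruSeq) made from the RNA of 3 vehicle and 3 AOA cultures were sequenced, and the authors deposited raw read counts per gene from uniquely mapped reads, each row with its Entrez identifier, gene symbol and length in bases. The submitters' processing notes name bcl2fastq, STAR, featureCounts and DESeq2 and the build mm10. Not given in the sources used here are the annotation and the strand setting of the counting. The authors normalised none of the deposited count values. The number of value columns with no matching sample was 0. Groups and pairing came from the labels, where each mouse donor number occurs once in either group. Deviations from group means correlated across genes within mice with r of 0.0868, 0.189 and 0.194.

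The test was that of edgeR 4.0.16 run in R 4.3.3 (filterByExpr with minimum count 10, TMM, robust quasi-likelihood test, Benjamini-Hochberg adjustment over all genes tested, threshold 0.05). On data simulated from these libraries the share of false calls was above this threshold, at 9.07%, and at 12.26% with the replicate block. Far fewer genes were changed in the simulated data than were called here, so these shares need not hold for these data. Calls near the threshold are taken as less certain than it states. CPM used TMM library sizes, and 0.1 CPM was added before ratios within mice. Length ranges of similar genes run from the 10th to the 90th percentile of the members' lengths. Alternatives were limma 3.58.1 with voom, DESeq2 1.42.0, scaling by median-of-ratios factors or by totals alone, no filter, a filter of 10 CPM or more in 3 libraries, a replicate block for the mouse, removal of the length trend (lowess, span 0.5) alone or with that block, libraries thinned to 1 total, a minimum absolute log2 fold change of 1, Ndufa4 left out, the full length range and each library left out. Gene positions and shared stretches of 75 bases came from GENCODE M21 on GRCm38 and promoters from RefSeq.

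The members and all lists (modules, core subunits, other assembly factors, mitochondrially encoded ND genes, markers) were chosen with earlier results of these data known. Library values are given for the 2 called members of each module and of the assembly factors with the largest change, core subunits, called members against the majority and Ndufa4. Outside the Nduf names only the extremes of the other assembly factors are given with values, and Aifm1, Dmac1, Acad9 and the printed promoters were chosen after their values were seen. Exact permutation of 3 against 3 libraries cannot give a p below 0.1 and was not used. The values of 1 subunit, which is in all counts and medians, are not reported here.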

Additional observations from a re-analysis of the deposited data

How the results depend on the processing

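Of the genes called higher, 18 subunits and 2 assembly factors (Ndufaf4 and Ndufaf5) were called in each of 16 alternatives, which include the 6 single libraries left out and leave aside the minimum fold change. The 18 were Ndufa1, Ndufa3, Ndufa5, Ndufa8, Ndufa9, Ndufa11, Ndufa12, Ndufb2, Ndufb3, Ndufb6, Ndufb7, Ndufb8, Ndufc1, Ndufc2, Ndufs1, Ndufs6, Ndufs8 and Ndufv1. A minimum absolute log2 fold change of 1 left 10 of the 37 subunits higher, 0 lower and 1 of the 8 assembly factors higher. It left 1418 of the 11759 genes tested higher, and 362 of the 2251 genes of similar length to the subunits. The share of assembly factors thus lay near that of all genes tested. With at least 10 CPM in 3 libraries, 3 assembly factors were called higher of the 6 that passed. Removing the length trend left 24 subunits higher and called 1 assembly factor lower, and with the replicate block added 23 subunits and 4 assembly factors were higher and 0 assembly factors lower. DESeq2, limma, the other scalings, no filter and thinning gave 28 to 31 subunits and 5 to 6 assembly factors higher. The calls lost with thinning were those of Ndufs3 (0.37, adjusted p 0.0553), Ndufab1 (0.78, adjusted p 0.0525) and Ndufaf8 (0.80, adjusted p 0.064). Ndufa2, which just missed the threshold, was called with DESeq2, median-of-ratios factors, totals alone and no filter (adjusted p 0.038, 0.0496, 0.0449 and 0.0422). With each library left out in turn, 20 to 31 subunits were called higher and 0 to 1 lower, and 2 to 7 assembly factors were called higher. The share of all genes tested called higher in these fits ran from 21.3% to 29.6%. The count of lower subunits was 0 without vehicle replicate 1, vehicle replicate 3, AOA replicate 2 or AOA replicate 3. Medians were 0.64 to 0.86 for subunits and 0.50 to 0.86 for assembly factors. With the mouse as a replicate block, 29 subunits and 6 assembly factors were called higher, Ndufa13 lost its call and no other call on these genes changed. Ndufv3 reversed to -0.012 with the length trend removed and to -0.0145 with the replicate block added, and ranged from -0.077 to 0.20 with libraries left out. The causes of these changes were not tested. Genes at a few CPM, such as Ndufab1, Ndufb4 and Ndufaf8, have the widest standard errors, and 3 libraries a group limit calls of small changes.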
